A study of Mus musculus with 6 samples.

Results

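Homologous recombination and the Fanconi anaemia pathway repair broken and crosslinked DNA, and 35 genes of these pathways were examined for peaks of E2F1 chromatin immunoprecipitation followed by sequencing (ChIP-seq), of 21887 protein-coding genes in all. The 35 genes form a list by name, and the rule that sets it uses no measured value. The list was, however, chosen with earlier results of these data known. A gene was counted as having a peak where any base of a listed peak lay inside the gene or within 1000 bp of it. The cell line was NIH/3T3, established from fibroblasts of mouse embryos, with 2 libraries from cells in which doxycycline induces E2F1 and 2 from cells with the inducible empty vector, labelled EV. Cells of both genotypes had been held in 0.25% serum for 48 hours and then received doxycycline for 12 hours, so the EV cells shared the starvation and the drug. The protocol gives doxycycline at 500 ng/ml, whereas the names of the listed peaks carry another number before "dox", so the dose is uncertain. The labels state neither the promoter and species of the E2F1 construct nor whether the lines are single clones, nor whether the libraries of a group came from separate cultures, and the lists hold no expression with which to check the cell type.

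Homologous recombination copies a lost stretch from the sister chromatid. The MRE11-RAD50-NBN complex and CtIP, encoded by Rbbp8, trim the broken ends, and BRCA1, PALB2 and BRCA2 then act on the exposed strand, after which helicases and nucleases resolve the joined molecules. In the Fanconi pathway a core complex with the E2 enzyme UBE2T ubiquitinates FANCD2 and FANCI at crosslinked DNA. E2F1 is a transcription factor of the G1-to-S transition that binds a short GC-rich DNA element after a run of T, and many genes for DNA replication are known E2F targets.

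The promoters printed here were chosen for the E2F element they hold and, for Fancb, for its lack of a listed peak. Only 26 of the 35 members had a promoter sequence to search. First comes a promoter with a full E2F element for each of the 5 members in which one was found. The promoters of Brca1, with a shorter form of the element, and of Fancb, the member with no listed peak, follow. Each runs from 250 bases before to 50 bases after a gene start listed by RefSeq (GRCm38.p6), 5′ to 3′ on the gene's strand. Capitals mark the E2F element or, in Brca1 and Fancb, the 7-base form that lacks its first T, and on either strand, so that GCGGGAAA is the reverse complement of TTTCCCGC.
Brca2, chr5:150522371-150522670, plus strand: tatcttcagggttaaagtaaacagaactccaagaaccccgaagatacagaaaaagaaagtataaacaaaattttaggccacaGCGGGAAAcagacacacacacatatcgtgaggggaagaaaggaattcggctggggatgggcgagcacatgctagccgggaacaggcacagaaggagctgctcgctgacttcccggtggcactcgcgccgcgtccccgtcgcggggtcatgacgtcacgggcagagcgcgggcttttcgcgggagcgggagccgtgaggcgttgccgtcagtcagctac
Rmi1, chr13:58402347-58402646, plus strand: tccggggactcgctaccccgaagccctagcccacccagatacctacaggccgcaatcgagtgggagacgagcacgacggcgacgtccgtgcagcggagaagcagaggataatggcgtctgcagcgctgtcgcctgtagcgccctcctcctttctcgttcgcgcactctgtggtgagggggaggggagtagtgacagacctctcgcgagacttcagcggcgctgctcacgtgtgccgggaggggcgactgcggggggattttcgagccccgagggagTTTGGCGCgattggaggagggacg
Rad51c, chr11:87404457-87404756, minus strand: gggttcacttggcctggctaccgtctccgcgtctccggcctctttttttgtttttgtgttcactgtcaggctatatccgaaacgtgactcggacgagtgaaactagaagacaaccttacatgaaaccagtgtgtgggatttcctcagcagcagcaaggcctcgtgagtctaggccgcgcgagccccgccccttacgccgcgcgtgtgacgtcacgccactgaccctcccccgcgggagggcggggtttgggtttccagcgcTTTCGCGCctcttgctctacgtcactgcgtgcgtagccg
Fancg, chr4:43010252-43010551, minus strand: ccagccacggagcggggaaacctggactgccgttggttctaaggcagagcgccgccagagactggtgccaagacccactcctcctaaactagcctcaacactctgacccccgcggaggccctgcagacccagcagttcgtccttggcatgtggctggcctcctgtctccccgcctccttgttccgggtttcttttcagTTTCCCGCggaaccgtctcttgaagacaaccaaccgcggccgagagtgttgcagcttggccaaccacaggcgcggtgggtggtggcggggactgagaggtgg
Bard1, chr1:71102923-71103222, minus strand: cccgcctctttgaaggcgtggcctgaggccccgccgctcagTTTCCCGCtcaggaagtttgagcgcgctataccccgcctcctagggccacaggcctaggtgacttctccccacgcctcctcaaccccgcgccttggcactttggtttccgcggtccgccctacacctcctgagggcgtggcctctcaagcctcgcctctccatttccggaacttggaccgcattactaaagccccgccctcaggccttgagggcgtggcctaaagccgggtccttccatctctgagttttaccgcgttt
Brca1, chr11:101551906-101552205, minus strand: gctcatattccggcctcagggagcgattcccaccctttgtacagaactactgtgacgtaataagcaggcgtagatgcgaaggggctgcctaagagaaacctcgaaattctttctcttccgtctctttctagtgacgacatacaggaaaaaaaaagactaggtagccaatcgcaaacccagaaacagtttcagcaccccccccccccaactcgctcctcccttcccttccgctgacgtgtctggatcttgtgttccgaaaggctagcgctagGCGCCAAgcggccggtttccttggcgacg
Fancb, chrX:164980342-164980641, plus strand: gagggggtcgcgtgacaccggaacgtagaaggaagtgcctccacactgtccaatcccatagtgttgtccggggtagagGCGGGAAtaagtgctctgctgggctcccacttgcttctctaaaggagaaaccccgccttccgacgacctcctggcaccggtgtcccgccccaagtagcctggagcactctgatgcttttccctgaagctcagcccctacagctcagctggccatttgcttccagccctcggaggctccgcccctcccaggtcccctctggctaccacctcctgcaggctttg

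E2F1 peaks were found at nearly all of these genes. In both E2F1 lists 33 of the 35 members had a peak (94.3%, Wilson 95% interval 81.4 to 98.4, counting error only), where 34.4% of all protein-coding genes did. In E2F1 replicate 1 the members with a peak numbered 33, with 36.9% of all genes having one, and in E2F1 replicate 2 they numbered 34, with 38.2% of all genes. The members without a peak in both lists were Fancb, which had none, and Rad54l, which had one in replicate 2 only.

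In the EV lists no member had a peak. The count was 0 of 35 in EV replicate 1, where 0.0366% of all genes had a peak, and 0 of 35 in EV replicate 2, where 0.407% did, with 0.434% of genes having a peak in either EV list. A count of 0 of 35 allows a share of up to 9.89% (Wilson 95% interval). With so few genes called in EV cells, a count of 0 among 35 is near the background. The EV peak closest to any member lay 298 kb from Mre11a, in EV replicate 2. Members with a peak averaged 33.5 ± 0.707 (SD, n = 2) per E2F1 library and 0 ± 0 (SD, n = 2) per EV library, and the groups did not overlap. The exact two-sided permutation test over the 4 libraries gave p = 0.333, the smallest value 2 against 2 can give, so this design cannot pass 0.05. The EV lists were also short, with 70 and 358 peaks against 7836 and 8027 in the E2F1 lists, and a weaker immunoprecipitation in EV cells cannot be told apart from less E2F1 in them.

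**Figure D1:**
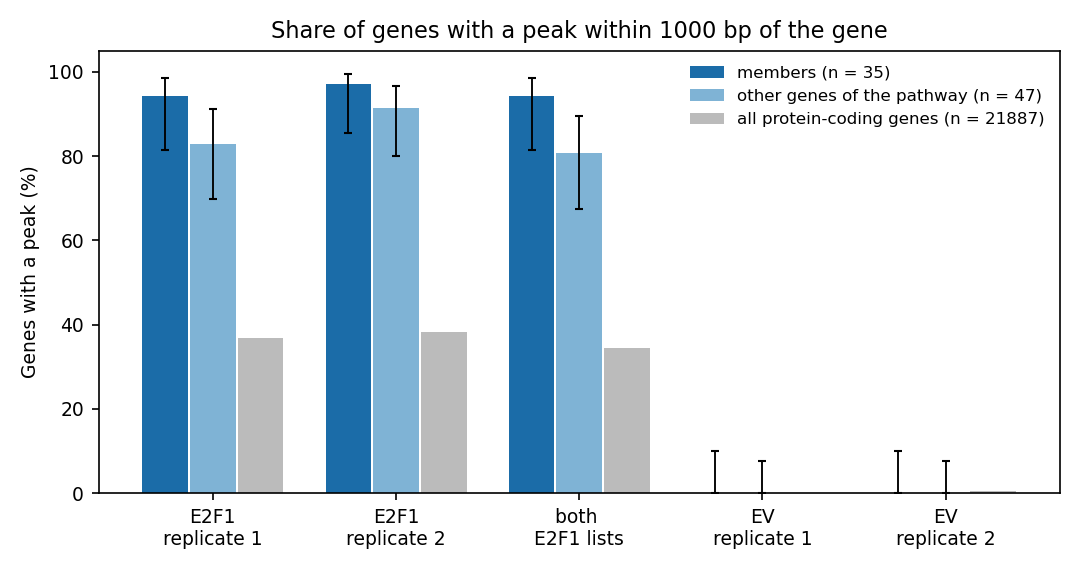
Percentage of genes with a peak within 1000 bp of the gene in each library and in both E2F1 lists, for the 35 members, 47 other genes of the pathway and all 21887 protein-coding genes. Error bars are Wilson 95% intervals; the members stand at 94.3% in both E2F1 lists against 34.4% of all genes, and at 0 in both EV lists.

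Long genes offer more room for a peak. All 15 members of 50 kb and over had a peak in both E2F1 lists, against 46.5% of all genes of that length. Of the 14 members between 10 and 50 kb, 12 did, against 40.1%, and all 6 members under 10 kb did, against 20.5%. With peaks required within 1000 bp of either end of the gene the count was 31 of 35, against 30.9% of all genes. Around listed gene starts it was 23 of the 26 members with such a start, against 33.1%.

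The members' peaks were above the typical peak of each list. The fold enrichment used here is the authors' own value for each peak, the reads stacked at its summit relative to the local background, and it ranks peaks within a list only. Of the members with a peak, the strongest peak had a median fold enrichment of 13.5 in replicate 1 (range 4.72 to 34.4) and 16.2 in replicate 2 (5.93 to 48.8). Over all protein-coding genes with a peak the medians were 9.73 and 12.0. Members with a score, the authors' measure of a peak's q-value, at or above the median of each list numbered 24 of 35, against 17.1% of all genes. Both shares include genes without a peak. Among genes with a peak in both lists, 24 of 33 members reached that score, and 3743 of 7537 of all genes did. Of the highest peaks, 8 of the 33 members with a peak in both lists (24.2%) were in the top 25% of both lists by fold, and of all genes with a peak in both lists 1533 of 7537 were (20.3%), which is 7% of all genes. The 8 were Brca2, Rmi1, Rmi2, Nbn, Rad54b, Rad51c, Fancf and Rad51ap1.

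**Figure D2:**
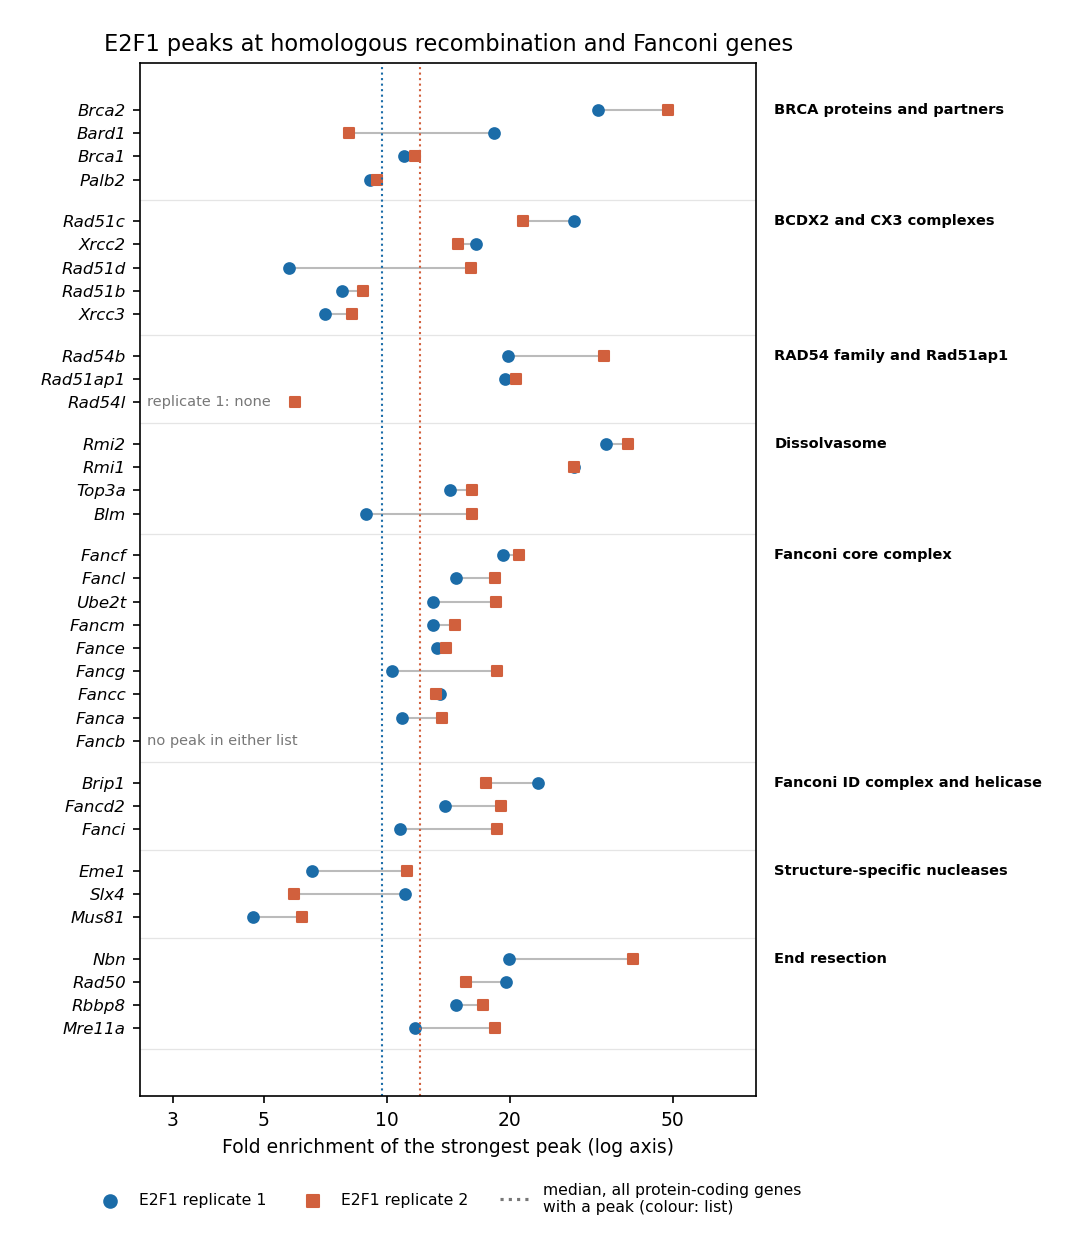
Fold enrichment of the strongest peak at each member gene in E2F1 replicate 1 (circles) and replicate 2 (squares), on a log axis, with members grouped by role and ordered by mean rank. Dotted lines are the medians over all protein-coding genes with a peak, 9.73 and 12.0; Brca2, Rmi1 and Rmi2 lie to the right in both lists, and Mus81 to the left.

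Among the BRCA proteins and their partners all 4 genes had a peak in both lists. Brca2, whose protein acts with PALB2 on single-stranded DNA, had the highest mean rank of all members. Its peak spanned 150521890 to 150523509 on chromosome 5 in replicate 1, with a fold of 32.9 at rank 196 of the list, and 150522279 to 150523271 in replicate 2, with a fold of 48.8 at rank 211. The summits lay 32 and 25 bp downstream of the listed start, 196 and 189 bp from the middle of the GCGGGAAA in the printed promoter. The pileup, the number of reads stacked at the summit, was 146 and 199 reads. Brca1, whose protein is part of a ubiquitin ligase, was close to the list medians, with folds of 11.0 and 11.7. Its peak, at 101551495 to 101553039 on chromosome 11 in replicate 1 and 101551268 to 101552613 in replicate 2, also lay within 1000 bp of Nbr1. Palb2, the bridge between BRCA1 and BRCA2, had folds of 9.13 and 9.45, and Bard1, the partner of BRCA1 in its ligase, 18.3 and 8.10. The TTTCCCGC of the printed Bard1 promoter lay 423 and 537 bp from the summits.

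The 5 genes of the BCDX2 and CX3 complexes, which act in strand exchange, all had peaks in both lists, with median folds of 7.78 and 14.9. Rad51c had the highest folds of the 5, with folds of 28.7 and 21.5 at ranks 304 and 1590, on chromosome 11 at 87404018 to 87405041 and 87404066 to 87404643. RefSeq lists more than one start for it, and the summits lay 143 and 113 bp downstream of the one printed, 128 and 98 bp from its TTTCGCGC. A full element, GCGGGAAA, was also in the window of the other listed start, which is not printed, 592 and 562 bp from the summits. Xrcc2 had folds of 16.5 and 14.9, Rad51d 5.78 and 16.1, Rad51b 7.78 and 8.75, and Xrcc3 7.07 and 8.21. The last pair were in the lower part of both lists, Rad51b at ranks 4851 and 5174 and Xrcc3 at 5319 and 5461. At Xrcc3 the summits of the replicates were 624 bp apart, the widest gap of any member. Rad51d had a further peak in replicate 2 alone, at 82870553 to 82871365 on chromosome 11, 595 bp outside the gene and near Rffl, with a fold of 8.18. That was the one member peak that did not reach into its gene.

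Of the RAD54 family genes and Rad51ap1, which act in strand invasion, Rad54b had folds of 19.8 and 33.9 at ranks 932 and 607, and Rad51ap1 of 19.5 and 20.7, both in the top 25% of both lists. Rad54l, the other RAD54 family translocase, behaved differently. No peak was listed for it in replicate 1, where the nearest lay 17.6 kb away. In replicate 2 its peak, at 116123459 to 116123993 on chromosome 4, had a fold of 5.98 at rank 6970 and a −log10 p of 12.0. Since every list ends just above a −log10 p of 10, a weaker signal in replicate 1 would not have been listed.

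The 4 genes of the dissolvasome, which separates double Holliday junctions, had the highest median folds of the 8 member roles, 21.5 and 22.4. Rmi2 had folds of 34.4 and 39.0 at ranks 157 and 438, on chromosome 16 at 10834825 to 10835490 and 10834799 to 10835807, with pileups of 166 and 144 reads. Rmi1 had folds of 28.6 and 28.7 at ranks 306 and 917, on chromosome 13 at 58401071 to 58403590 and 58401224 to 58403482. RMI1 and RMI2 are the scaffold proteins of the complex. The Rmi1 peak was the broadest of the members' strongest peaks in each list, at 2520 and 2259 bp, and also lay at Hnrnpk. The summits at Rmi1 were 180 and 113 bp from the TTTGGCGC of the printed promoter. The helicase gene Blm had folds of 8.89 and 16.2, and the topoisomerase gene Top3a 14.3 and 16.2.

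In the Fanconi core complex 8 of 9 genes had a peak in both lists, with folds inside a narrow range. Those 8 lay between 10.3 and 19.2 in replicate 1 and between 13.2 and 21.1 in replicate 2. The highest were at Fancf, an adaptor of the complex, with 19.2 and 21.1. Fancl, the ubiquitin ligase subunit, had 14.7 and 18.4, and Ube2t, its E2 enzyme, 13.0 and 18.6. Fance and Fancc, which bind each other in the complex, had 13.3 and 14.0, and 13.5 and 13.2, respectively. Fanca had 10.9 and 13.7, and Fancg, which binds FANCA, 10.3 and 18.6. Of the 5 members with a full E2F element in a searched promoter window, Fancg had the summits closest to it. They lay 98 and 49 bp from the TTTCCCGC in the printed promoter.

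Fancb, an X-linked gene of the core complex, was the exception. In the E2F1 lists the nearest peaks lay 711 kb from it in replicate 1 and 904 kb in replicate 2. Chromosome X had fewer genes with a peak in general, 13.6% of its 966 protein-coding genes in both lists. The Fancb promoter held the 7-base form of the element, GCGGGAA.

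Fancm, the translocase that anchors the core complex to DNA, had 2 peaks in each list. The stronger, at 65073452 to 65074290 on chromosome 12 in replicate 1 and 65073513 to 65074320 in replicate 2, had folds of 13.0 and 14.7. It lay at the 5′ end of the gene span, shared with Fkbp3, with summits 302 and 239 bp from that end. Relative to the listed start, which lies inside the span, the summits were at -1795 and -1732 bp. The weaker, with folds of 7.01 and 10.9, had its summits 159 and 74 bp downstream of that start.

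Fancd2 and Fanci, which form the ubiquitinated clamp of the pathway, had folds of 13.9 and 19.0, and 10.8 and 18.6, respectively. Brip1, a helicase that binds BRCA1, had 23.5 and 17.5. The peak at Fancd2 lay within 1000 bp of Emc3 as well, and that at Fanci within 1000 bp of Rlbp1.

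The 3 nuclease genes had the lowest median folds of the 8 member roles, 6.57 and 6.21. Mus81, the catalytic subunit of a junction-cutting enzyme, was the lowest by mean percentile of the 33 members with a peak in both lists, with folds of 4.72 and 6.21 at ranks 7490 of 7836 and 6814 of 8027. In replicate 2 Slx4 and Rad54l ranked below it. Its peak on chromosome 19, at 5487859 to 5488273 and 5487842 to 5488270, had a −log10 p of 11.5 in replicate 1, the lowest of any member peak. Eme1, the partner of MUS81, had 6.57 and 11.2 at ranks 5765 and 4082. Slx4, the scaffold for these nucleases, had 11.1 and 5.93. Its summits lay 220 and 207 bp from the 5′ end of the gene span. Relative to the listed start, which lies inside the span, they were at -1931 and -1944 bp.

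All 4 genes of end resection had peaks in both lists. Nbn, the signalling subunit of the MRN complex, was the highest, with folds of 19.9 and 40.0 at ranks 921 and 396. Its pileups were alike, 134 and 132 reads, and the local backgrounds were 5.79 and 2.32 reads. Rad50 had 19.6 and 15.6, and Mre11a, the nuclease, 11.7 and 18.4. Rbbp8 had 14.7 and 17.2 from a peak deep in the gene, with summits 24353 and 24466 bp from its nearest end. Fancc was like it, with summits 65656 and 65640 bp from an end of the gene, but there RefSeq lists a start 109 and 93 bp upstream of them. No start was matched for Rbbp8.

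The position of the summits was similar from gene to gene. In this paragraph all genes are those with a listed start and a peak in the list, 6609 in replicate 1 and 6815 in replicate 2. Members of that kind numbered 24 in replicate 1. The summit of the strongest peak lay 0 to 300 bp downstream of the start at 19 of them (79.2%), against 54.2% of all genes. In replicate 2 it did so at 18 of 25 (72%), against 50.2%. The median summit lay 131 bp downstream in replicate 1 and 67 bp in replicate 2, and over all genes 134 and 60 bp. Besides Fancm and Slx4, the members with summits upstream in both lists were Fancg, at -146 and -97 bp, and Ube2t, at -241 and -110 bp. Windows like those printed, which end 50 bases after the start, held the summits of 3 of 24 members in replicate 1 (12.5%), against 20.7% of all genes. In replicate 2 they held those of 9 of 25 (36%), against 35.8%.

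**Figure D3:**
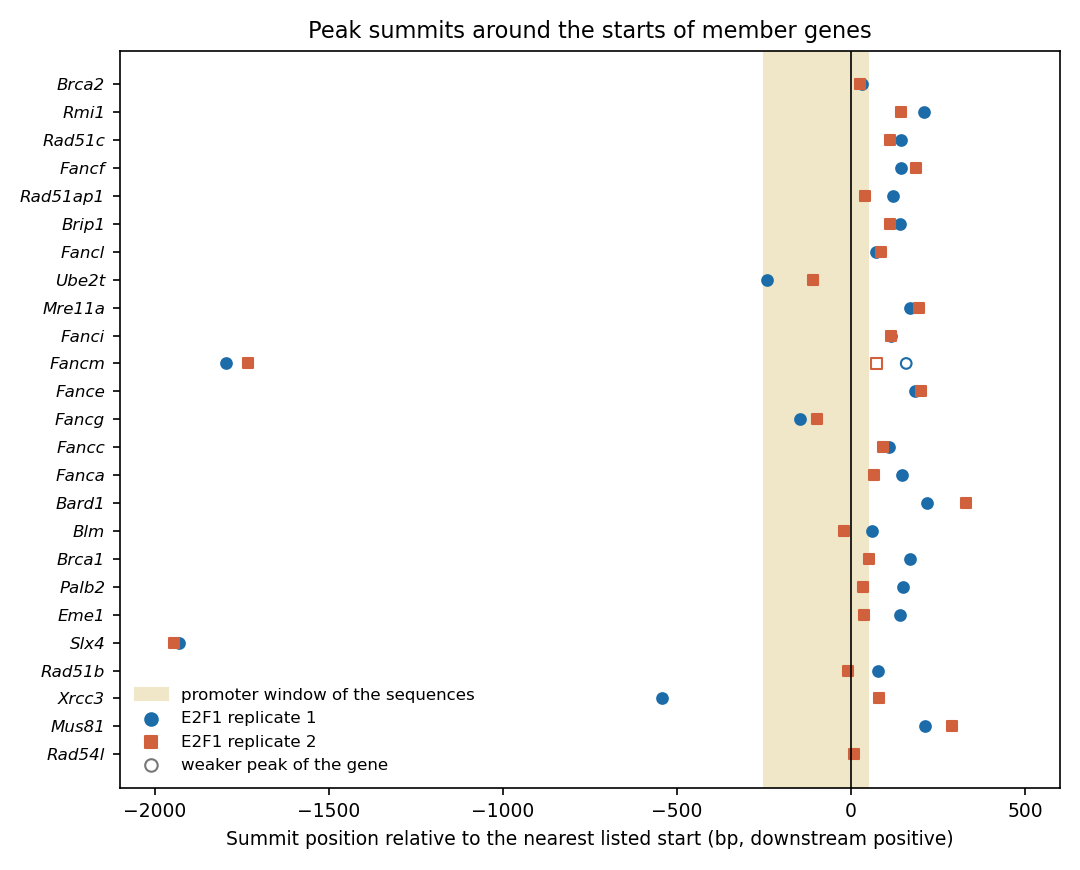
Position of peak summits relative to the nearest listed gene start, in bp with downstream positive, for the 25 members with a listed start and a peak. Filled symbols are the strongest peak of a gene, open symbols a weaker one, and the shaded band is the window of the printed promoters. Most summits lie up to 300 bp downstream. Those of the strongest peaks of Fancm and Slx4 lie between -1944 and -1732 bp, near the 5′ end of each gene span.

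Many of the members' peaks also came near another gene. Of the 33 members with a peak in both lists, 16 (48.5%) had a peak that also came within 1000 bp of an end of another protein-coding gene, against 30.8% of all genes with a peak in both lists. These neighbours included Nbr1 beside Brca1, Tex14 beside Rad51c, Dctn5 beside Palb2, Smcr8 beside Top3a, Gas2 beside Fancf, Ankrd49 beside Mre11a and Mrpl27 beside Eme1. The lists do not say which gene of such a pair a peak serves.

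Full E2F elements were present in a minority of promoters, and in a larger share of the members than of all genes. The letters searched, on both strands, were TTTCCCGC, TTTCGCGC, TTTGCCGC and TTTGGCGC. Of the 26 members with a promoter sequence, 5 held one (19.2%, Wilson 95% interval 8.51 to 37.9): Brca2, Rmi1, Rad51c, Fancg and Bard1. Of all 17492 genes with a promoter sequence 3.29% did, and of those with a peak in both lists 6.19%. These 5 members had a median fold of 28.6 in replicate 1 and 21.5 in replicate 2, and the 21 without the element had 11.1 and 13.8, over those with a peak. The ranges overlapped, since Fancg, at 10.3 in replicate 1, and Bard1, at 8.10 in replicate 2, were low. Members without a promoter sequence were in neither group. They included Rmi2, Nbn and Rad54b, among the 5 highest by mean percentile, and also Rad51d, with folds of 5.78 and 16.1.

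The count depended on the letters and the window. The 7-base form, which is each of the 4 full elements without its first T, was present in 14 of 26 member promoters (53.8%), in 13.7% of all promoters and in 24.1% of those of genes with a peak in both lists. In the shorter window from 150 bases before the start, 3 of 26 held a full element, against 2.40% of all. CCAAT, the letters of the NF-Y site, was found in 18 of 26 (69.2%), against 42.3% of all promoters and 42.4% of those with a peak. GGGCGG, the Sp1 letters, was found in 15 of 26 (57.7%), against 49.2% of all and 75.7% of those with a peak. TTTGAA or TTCGAA, the letters of the cell cycle homology region, were found in 3 of 26, against 20.2% of all and 15.9% of those with a peak. CCGGAAGT, the ETS letters, was found in 2 of 26, against 5.69% of all and 9.81% of those with a peak. TGACGTCA, the CREB letters, was also found in 2 of 26, against 2.54% of all and 3.75% of those with a peak. The members' promoters had a median of 59.7% G and C, against 56.3% for all genes and 63.5% for genes with a peak.

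The replicates ranked some members differently. The largest differences were at Bard1, at rank 1137 in replicate 1 and 5529 in replicate 2, Rad51d, at 6589 and 2602, and Slx4, at 2982 and 7043. The reads behind a peak can be solved from its fold and p-value. At Bard1 the pileup was 51 reads in each list, while the local background was 1.85 reads in replicate 1 and 5.42 in replicate 2. At Rad51d the pileups were 36 and 45 reads and the backgrounds 5.40 and 1.86, so that here too the background differed more than the pileup. At Slx4 it was the pileup that differed, 40 and 21 reads, with backgrounds of 2.70 and 2.71.

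Over the 33 members the pileup agreed more closely between the replicates than the fold. Spearman's rho was 0.90 for the pileup, 0.68 for the fold and 0.24 for the local background, each across genes of 2 libraries and therefore a description only. Over all 7537 genes with a peak in both lists the values were 0.87, 0.71 and 0.28. The fold was higher in replicate 2 at 26 of the 33 members (78.8%) and at 70.9% of all genes, and the pileup at 20 of 33 (60.6%) and at 47.6% of all genes. The summits of the strongest peaks were a median of 63 bp apart, within 200 bp at 32 of the 33.

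**Figure D4:**
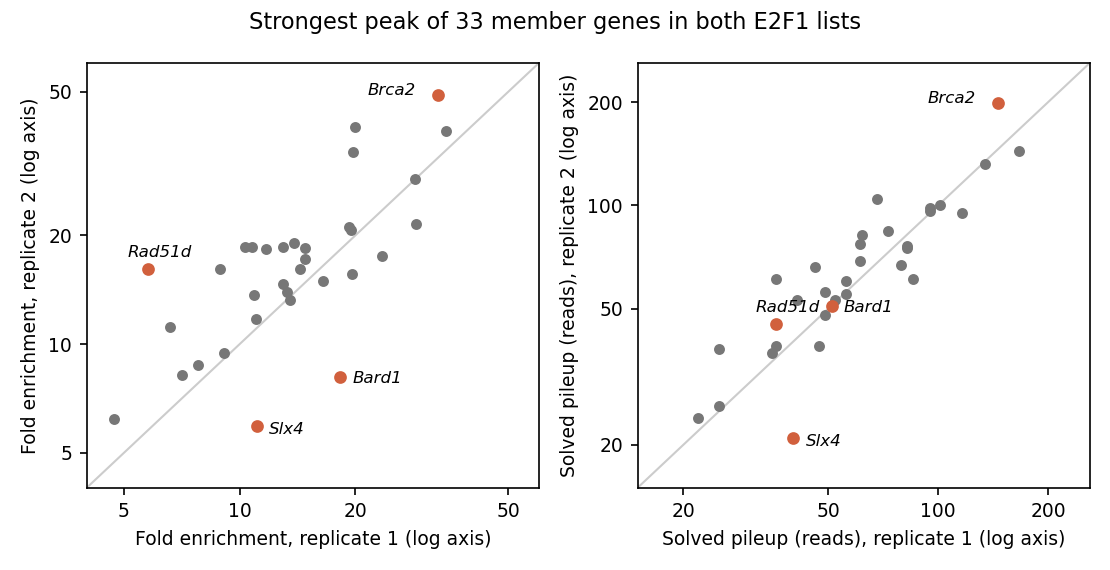
Fold enrichment (left) and solved pileup in reads (right) of the strongest peak of the 33 members with a peak in both lists, replicate 1 on the horizontal and replicate 2 on the vertical log axis, with the line of equal values. Bard1 and Rad51d lie far from the line by fold and near it by pileup, and Slx4 lies off it in both.

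Other genes of the pathway were bound nearly as often. Of 47 further genes for recombination and crosslink repair, 38 had a peak in both E2F1 lists (80.9%, 67.5 to 89.6), against the 34.4% of all genes, and none had one in an EV list. The highest was Usp1, which removes ubiquitin from FANCD2 and FANCI, with folds of 31.5 and 87.5. Fignl1 followed with 30.0 and 57.0, and Rev3l, the catalytic subunit of DNA polymerase zeta, with 29.3 and 53.3. Gen1, a Holliday junction nuclease, had 29.4 and 53.0, and Mcm9 had 26.6 and 42.0. The Gen1 peak also came within 1000 bp of an end of Smc6 in both lists.

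Of the 9 without a peak in both lists, Dmc1, the recombinase of meiosis, Fbh1 and Parpbp had none in either. Psmc3ip, Rtel1, Fan1, Ercc4 and Ercc1 had a peak in replicate 2 only, with folds between 5.13 and 8.75. Babam1 had peaks in replicate 1 only: one of fold 12.1 that lay 847 bp outside the gene, at Ankle1, and one of fold 6.35 inside it, with its summit 208 bp downstream of the listed start. All 3 subunits of RPA, which coats single-stranded DNA, had peaks in both lists, with folds of 16.9 and 16.3 at Rpa1, 18.3 and 7.81 at Rpa2, and 11.8 and 14.7 at Rpa3.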

How the data were processed

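Each ChIP-seq library has 1 deposited peak list of 10 columns in narrowPeak layout. The build mm10 (GRCm38), Bowtie2 and MACS2 are named in the submitters' processing notes, without versions or settings, and the antibody and the control of each list are not given in the sources used here. Fold enrichment, as deposited, is the ratio of summit pileup to local background. The authors' score is 10 times the deposited −log10 q-value, rounded down, for about 99.8% of peaks in E2F1 replicate 2 and more in the other lists. The smallest deposited −log10 p-value was just above 10 in every list, so weaker sites are not listed. Read totals were not used; the lowest solved background of a list, the only measure of depth here, was 1.85 and 1.86 reads in E2F1 replicates 1 and 2 and 2.20 and 1.18 in EV replicates 1 and 2. The labels also name input DNA of EV cells, which is not analysed here.

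Peaks were assigned to genes of RefSeq (GRCm38.p6) with Python 3.11.15, NumPy 2.4.6, pandas 2.3.3 and SciPy 1.17.1. All 35 members matched by symbol, and 41 of the 47 other genes by symbol and 6 by a newer symbol. A gene with several peaks is represented by the one of highest fold. Pileup and background were solved from fold, as pileup plus 1 over background plus 1, and the Poisson p-value, which gave a whole-number pileup within 5% of a step for 99.98% or more of the E2F1 peaks. Starts and promoter sequences came from a RefSeq table covering 26 members. The steps were tested on simulated data.

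The members, the list of other genes, the motifs and the alternatives were chosen with earlier results of these data known. Members are given by name in groups by role, with the fold of the strongest peak where one was listed. Ranks, positions or reads are added mainly for those without a peak in both lists and the 5 highest and 5 lowest by mean percentile. The same holds for the 3 with the largest difference between replicates and those with more than 1 peak in a list. Members whose strongest peak lies over 1000 bp from a start or end are also given with positions. Of the other genes, the 5 highest and those lacking a peak are named; the RPA subunits were added after their values were seen. One gene of that list is counted but not reported by name. The number of members with a peak was compared over libraries, grouped by title, by an exact permutation test, whose p measures only the spread between these libraries, and all other comparisons set counts and medians beside those of all protein-coding genes.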

Additional observations from a re-analysis of the deposited data

How the results depend on the processing

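Of 35 alternatives computed over 8 results, 31 stayed within 1.5 times the reported count or within the SD between the E2F1 lists, and 4 moved. The number of members with a peak in both E2F1 lists was 33 with windows of 0, 500 and 2500 bp, with the summit in the window, and with replicate peaks overlapping by 1 bp or reciprocally by 50%. It was 24 with scores at or above each list's median and ran from 33 to 34 without one replicate. No member had an EV peak in any of the 5 alternatives tried. The difference of 33.5 members between E2F1 and EV libraries became 24.5 when the score had to reach 312 in every list, and lay between 33 and 34 when 1 library was left out. With the replicate block it was again 33.5, and an exact sign-flip test gave p = 0.5, which is the least that 2 pairs allow, and with 1 value per library the pairing of the numbers cannot be checked. The median percentile of the members' peaks in replicate 1, 73.3 by fold, was 65.8 by score and 61.1 by solved pileup; the cause was not tested. The count of promoters with a full E2F element, 5, fell to 3 in the shorter window and rose to 14 with the 7-base form, which drops a letter by construction. Every list ends at a −log10 p of 10, so a gene without a listed peak may still have signal.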
